A study of Mus musculus with 10 samples.

Results

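WNT proteins are secreted, lipid-modified signals that act at short range. They bind Frizzled receptors and co-receptors at the cell surface, and in the canonical branch this stabilizes β-catenin, which enters the nucleus and acts with TCF/LEF factors. Secreted proteins of the Sfrp, Dkk and Rspo families, together with Wif1 and Notum, restrain or strengthen the signal outside the cell. In the mid-gestation mouse embryo the pathway is known for its roles in the patterning of the neural tube, limb, tail bud, kidney and heart.

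The genes described here are the 19 Wnt ligands, 10 Frizzled receptors, 4 Sfrp, 4 Dkk and 4 Rspo genes found by the start of their symbol, joined by Axin2, Lef1, Wif1 and Notum. A mean above 0 was a condition of the selection, so all 45 meet it. Of the 24302 genes listed, 20665 had a mean above 0. RNA was sequenced from C57BL/6 mouse embryos at E11.5, of which 3 were wildtype, 3 heterozygous (WWC2-/+) and 4 homozygous (WWC2-/-) for a deletion of Wwc2, an upstream component of the Hippo pathway. The deletion was made from a floxed allele with Zp3-Cre, a recombinase expressed in oocytes, so that the germ line and not one tissue was targeted. Each value below is the authors' mean of normalized read counts over all 10 embryos, mutants included, and is not a wildtype level. The spread between embryos cannot be taken from it, and no genotype comparison is made, because the columns of the authors' own comparisons were not used here. The level of a gene was set as this mean divided by the length of its exons in kb, so that genes of different length could be compared. In whole embryos, few cells with much RNA of a gene and many cells with little cannot be told apart.

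The lowest values of the deposited mean fell on repeated steps. The 10 lowest that were not sums of smaller ones were taken as the values that 1 read in 1 embryo gives. Their number was set to the number of embryos and is not a finding. These steps corresponded to size factors between 0.616 and 1.23. Multiplied by the summed mean, they put the reads counted in genes at about 15750000 to 31420000 per embryo, with a median of 27480000. Which embryo had which depth was not assigned. All 32 markers chosen for 8 embryonic tissues had a mean of at least 10, and the 4 markers of adult B and T cells summed to a mean normalized count of 6.57. The median mean over genes above 0 that had a length was 342. Most of those genes thus also reach 10, and reaching it says little about a tissue. The 4 trophoblast markers summed to a mean normalized count of 15243 and the 4 decidua markers to 13115, although Des, Dcn and Bmp2 of the latter are also genes of embryonic muscle and mesenchyme. Among these, the decidual prolactin Prl8a2 and the placental lactogen Prl3b1 stood at 9045 and 6589 normalized counts per kb, above every WNT gene. Whether these transcripts came from other tissue or from the embryo was not tested, nor was any part of them in the levels below. The mean over all 10 embryos does not show in which embryos they were high. The study reports that genes usually specific to the placenta, Tpbpa and Tpbpb among them, were upregulated in its homozygous embryos. That comparison was not repeated here.

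The 45 genes together took 0.18% of all normalized counts. Their median level was 109 normalized counts per kb, against 78.4 over the 19448 genes above 0 that had a length, and their median percentile among those genes was 55.5. Of the 45, 31 lay above the 50th percentile, 11 above the 75th and 5 above the 90th. The levels per kb of exon spanned 373-fold, from Wnt8a to Fzd2 (823-fold without division by length, from Wnt8a to Sfrp1), and the 10 highest genes held 68% of the summed level. With a mean normalized count of 10 as the limit, 43 genes passed. The median mean was 345 for the 45 genes and 342 over the 19448 genes, so most of those 19448 genes also pass this limit. The share of all genes that pass was not counted, so 43 of 45 is not read as particular to the WNT genes. Wnt8a and Dkk4 did not, with means of 6.94 and 7.75, and the next genes above the limit were Rspo4 with 50.9 and Wnt16 with 64.8.

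By family, receptor transcripts made up the largest share of the summed level. The Frizzled genes held 38.6% of it, the 4 Sfrp genes 25.9% and the 19 Wnt genes 19.4%. The Dkk and Rspo genes held 5.32% and 4.59%. Summed over their members, Frizzled levels were 2 times the Wnt levels. The 10 genes grouped here as secreted antagonists (Sfrp, Dkk, Wif1 and Notum) summed to 1.71 times the Wnt levels. That group includes the divergent Dkk3 and leaves out Frzb, which is not among the 45 genes. The 4 Rspo genes, agonists that protect Frizzleds from removal, summed to 0.237 of the Wnt level. These are ratios of transcript levels and say nothing of the proteins.

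**Figure D1:**
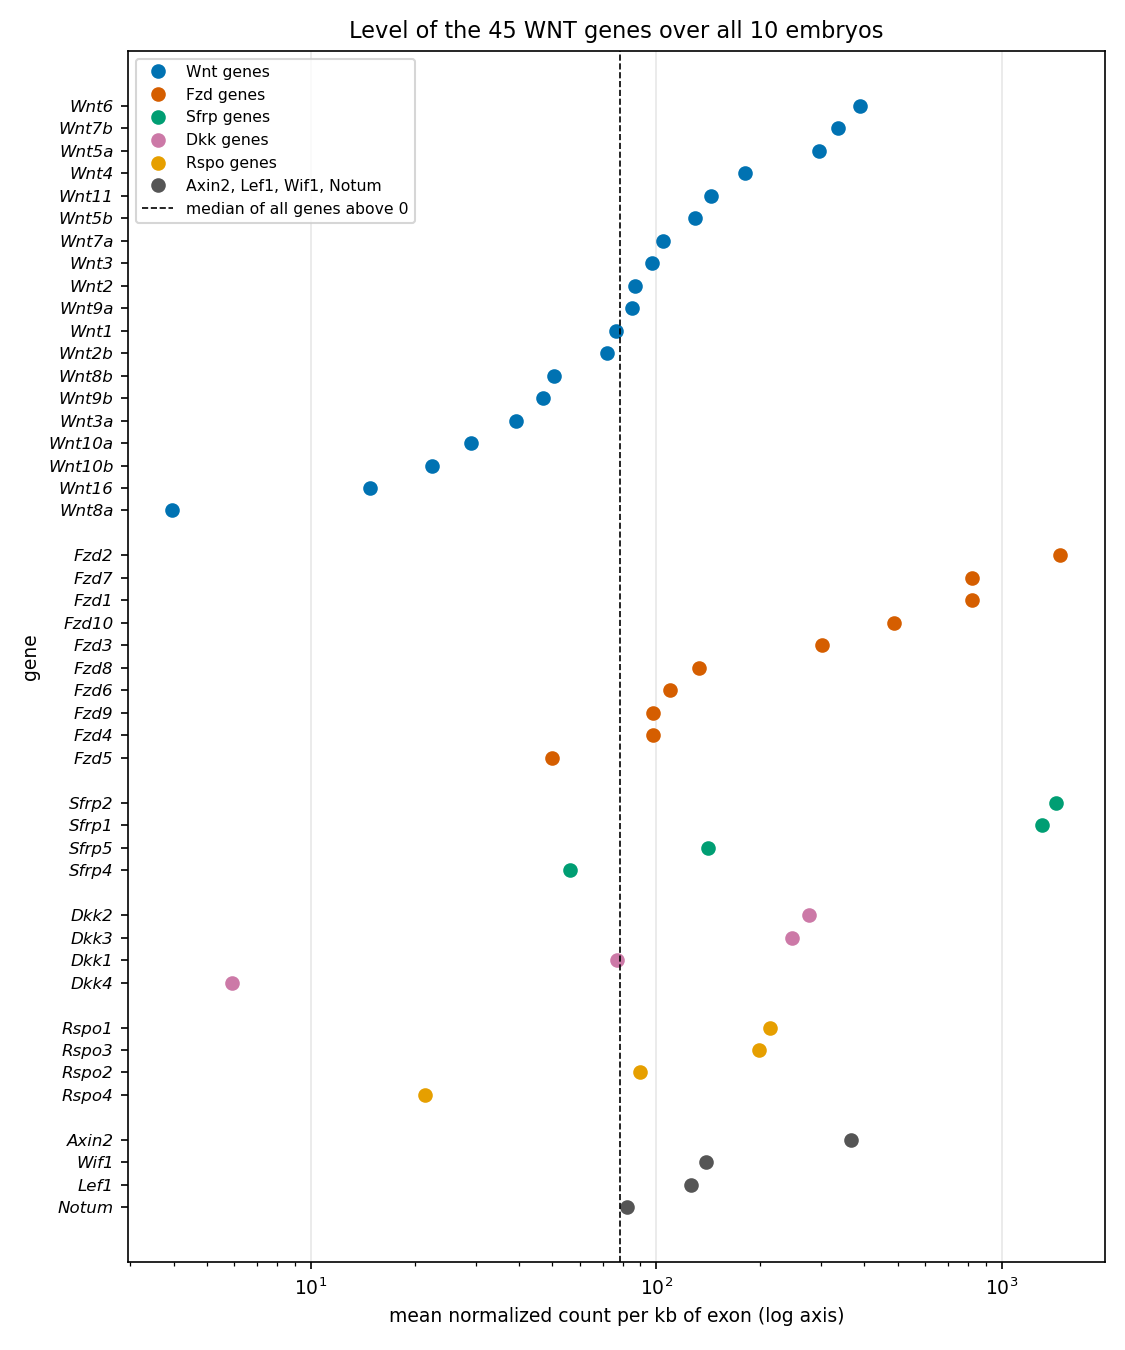
Each point is the mean normalized count per kb of exon of a gene (log axis) over all 10 embryos, ordered by level within each family. Dashes mark the median of all genes above 0, at 78.4. On this scale Fzd2, Sfrp2 and Sfrp1 lie farthest right, and Wnt8a and Dkk4 stand apart on the left.

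Among the ligands no gene dominated. Wnt6, known from surface ectoderm, was highest with 389 normalized counts per kb and 17.6% of the Wnt total. Wnt7b, known from lung epithelium and the nervous system, followed with 335, and Wnt5a, which drives outgrowth of limb and tail mesenchyme mainly through non-canonical signalling, with 296. These 3 genes held 46.3% of the Wnt level and 5 genes held 61.1%. Wnt4, needed for kidney and gonad formation, stood at 181 normalized counts per kb, and Wnt11, known from the ureteric bud and heart, at 145.

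The middle of the order was closely spaced. Wnt5b reached 129 normalized counts per kb, Wnt7a, which sets dorsal identity in the limb, 105, and Wnt3, needed for the primitive streak and the limb ectoderm, 97.4. Wnt2 and Wnt9a stood at 87 and 84.9, and Wnt1, the ligand of the dorsal neural tube and midbrain, at 76.3. Steps between neighbours from Wnt5b down to Wnt2b were 1.23-fold or less, and without the spread between embryos their order is not resolved. Wnt2b had 71.8 normalized counts per kb and Wnt8b, known from the medial forebrain, 50.6.

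The low end held 6 genes. Wnt9b, which starts tubule formation in the kidney, had 47 normalized counts per kb and Wnt3a, the ligand of the tail bud, 39.2. Wnt10a and Wnt10b, both known from skin and its appendages, had 29 and 22.4, and Wnt16 had 14.9. Wnt8a, known from the primitive streak of the earlier embryo, was lowest with 3.97, 3.74-fold below Wnt16 and 97.9-fold below Wnt6. Its mean is under the limit of 10, and without division by length it was 9.34-fold below Wnt16. Division by length decided the leader: with no division Wnt5a was first, ahead of Wnt7b and Wnt6 in that order, and with the longest transcript Wnt7b was first.

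Of the 7 pairs of Wnt genes that share a number, the members lay furthest apart in Wnt8, where Wnt8b was 12.7 times Wnt8a in normalized counts per kb and 25.4 times without division, with Wnt8a under the limit of 10. Wnt7b was 3.2 times Wnt7a per kb of exon and 4.94 times without division. Wnt5a was 2.3 times Wnt5b per kb of exon and 6.77 times without division. Wnt3 was 2.49 times Wnt3a. Wnt9a was 1.81 times Wnt9b. Of the 6 pairs with a b gene, that gene was the higher member in 2 per kb of exon, in 3 with the longest transcript and in 4 without division. The other pairs were close and their direction depended on length: Wnt10a over Wnt10b was 1.3 per kb of exon and 0.941 without division, and Wnt2 over Wnt2b was 1.21 per kb of exon, 0.958 per kb of the longest transcript and 0.651 without division.

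The 45 genes lie on 15 chromosomes, and 8 Wnt genes form 4 pairs less than 50 kb apart (mm10). Wnt6 (chr1:74771892-74785322) and Wnt10a (chr1:74791516-74804179) run in the same direction with 6.19 kb between them, and Wnt6 had 13.4 times the level per kb of Wnt10a. The other 3 pairs are head to head. Wnt10b (chr15:98770712-98778150) and Wnt1 (chr15:98789857-98793837) are 11.7 kb apart, and Wnt1 was 3.41 times Wnt10b. Wnt3a (chr11:59248033-59290752) and Wnt9a (chr11:59306928-59333552) are 16.2 kb apart, with Wnt9a at 2.17 times Wnt3a. Wnt9b (chr11:103727364-103749821) and Wnt3 (chr11:103774150-103817957) are 24.3 kb apart, with Wnt3 at 2.07 times Wnt9b. Adjacent genes differed by at least 2.07-fold per kb of exon (1.41-fold without division, for Wnt3 and Wnt9b), and the widest difference was in the pair that runs in one direction. All Wnt genes spanned 97.9-fold, and pairs that are not adjacent were not compared. No link between position and level is drawn from 4 pairs.

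**Figure D2:**
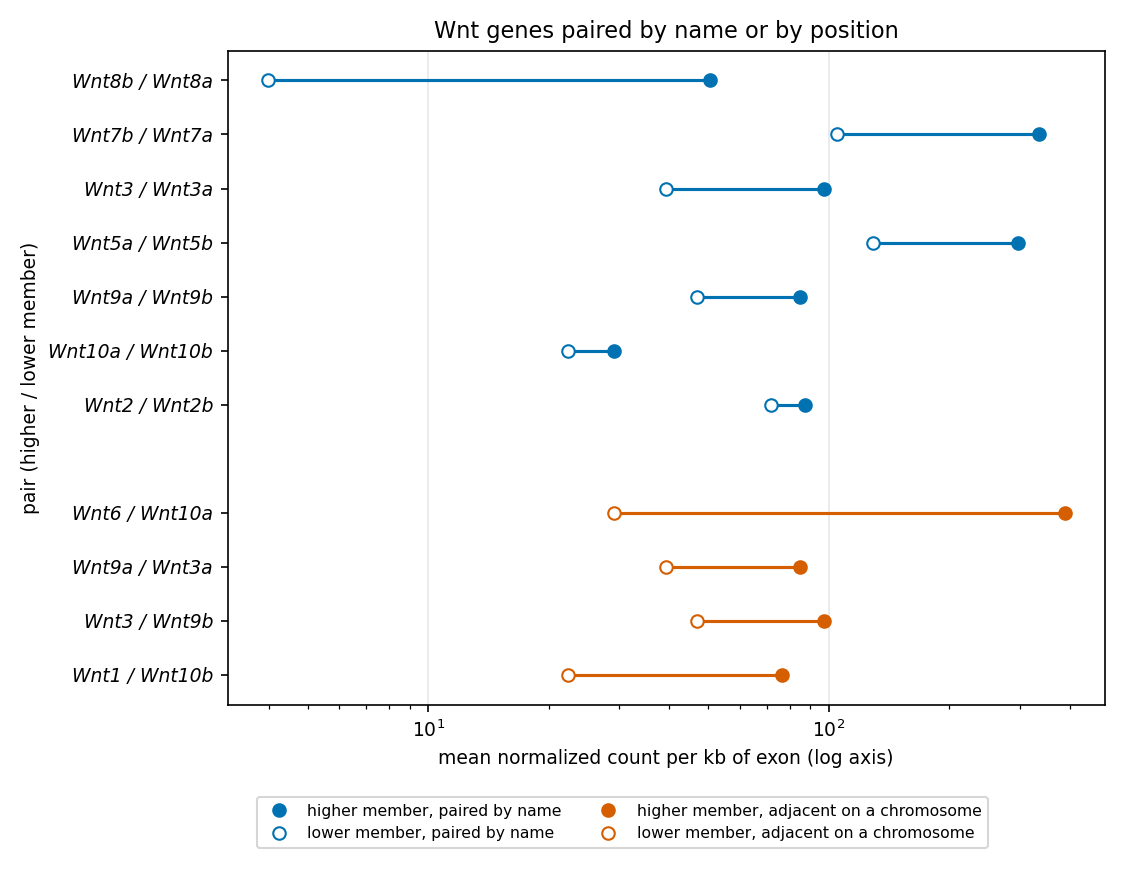
Filled and open points are the higher and lower member of each pair, in mean normalized counts per kb of exon (log axis) over all 10 embryos. Wnt8b and Wnt8a, and the adjacent Wnt6 and Wnt10a, are the furthest apart (12.7-fold and 13.4-fold).

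Among the receptors, Fzd2 (chr11, 1 coding exon) had 1480.5 normalized counts per kb of exon, at the 96.3rd percentile of all genes and with 33.6% of the Frizzled level. It was first of the 45 genes on this scale, but Sfrp2 was first with the longest transcript and Sfrp1 without division by length. Fzd7 and Fzd1, its closest relatives, followed at 822 and 821, which the data do not separate. These 3 genes held 71% of the Frizzled total, and without division by length Fzd3 came between Fzd2 and Fzd7. Fzd10, known from the dorsal neural tube and limb, stood at 488, and Fzd3, which guides axons through planar polarity signalling, at 302.

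The other 5 Frizzleds formed a lower group, from 133 normalized counts per kb downwards. Fzd8 had 133, Fzd6, a partner of Fzd3 in planar polarity, 109, and Fzd9 and Fzd4, the receptor of retinal vessels, 98 and 97.8. Fzd5, needed for yolk sac and placental vessels, was lowest with 49.9, and 17.8% of its exon bases lie under a gene on the opposite strand. Highest and lowest Frizzled were 29.7-fold apart. Of the 10 genes, 7 carry their coding sequence in 1 exon, whereas the Wnt genes have 4 to 6 coding exons, and coding sequences ran from 1611 to 2127 bases against 1047 to 1251 bases in the Wnt genes.

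The secreted Frizzled-related proteins, which bind WNT ligands through a domain like that of the receptors, were split. Sfrp2 and Sfrp1 had 1440.3 and 1307 normalized counts per kb, and together held 93.3% of the family level. Sfrp5 had 142, or 9.24-fold below Sfrp1 (21.3-fold without division by length), and Sfrp4 had 56.2. Without division by length Sfrp1 came before Sfrp2, and 16.1% of the exon bases of Sfrp2 lie under a gene on the opposite strand. Frzb, a further member of this family outside the named set, stood at 360.3.

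Dkk proteins bind the co-receptors Lrp5 and Lrp6, with the exception of the divergent Dkk3. Dkk2 and Dkk3 had 277 and 247 normalized counts per kb and held 86.4% of the family level. Dkk1, the antagonist needed for head formation, had 76.8 and Dkk4, under the limit of 10, had 5.89, 13-fold lower (24.1-fold without division by length). Among the agonists, Rspo1 and Rspo3 were close, with 213 and 198 normalized counts per kb, ahead of Rspo2, needed for limb and lung growth, with 89.5. Rspo4, known from nail formation, had 21.5. For Rspo3, whose loss stops placental vessel growth, 13.1% of the exon bases lie under a gene on the opposite strand.

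Axin2, a feedback inhibitor and widely used readout of canonical signalling, had 367 normalized counts per kb. Wif1, an antagonist that binds the ligand, had 139. Lef1, a nuclear partner of β-catenin, had 126, and its 8.79 kb of exon is longer than its longest transcript of 3.66 kb, on which its level was 303. Notum, an enzyme that removes the lipid from WNT proteins, had 82.6. Of its exon bases, 38.1% lie under opposite-strand genes. The labels name the library kit without a strand type and the study's methods name it as directional, and the strand setting of the counting is not given in the sources used here. In all, 10 of the 45 genes overlap an opposite-strand exon, 5 of them over more than 10% of their bases, and none overlaps an exon on its own strand.

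**Figure D3:**
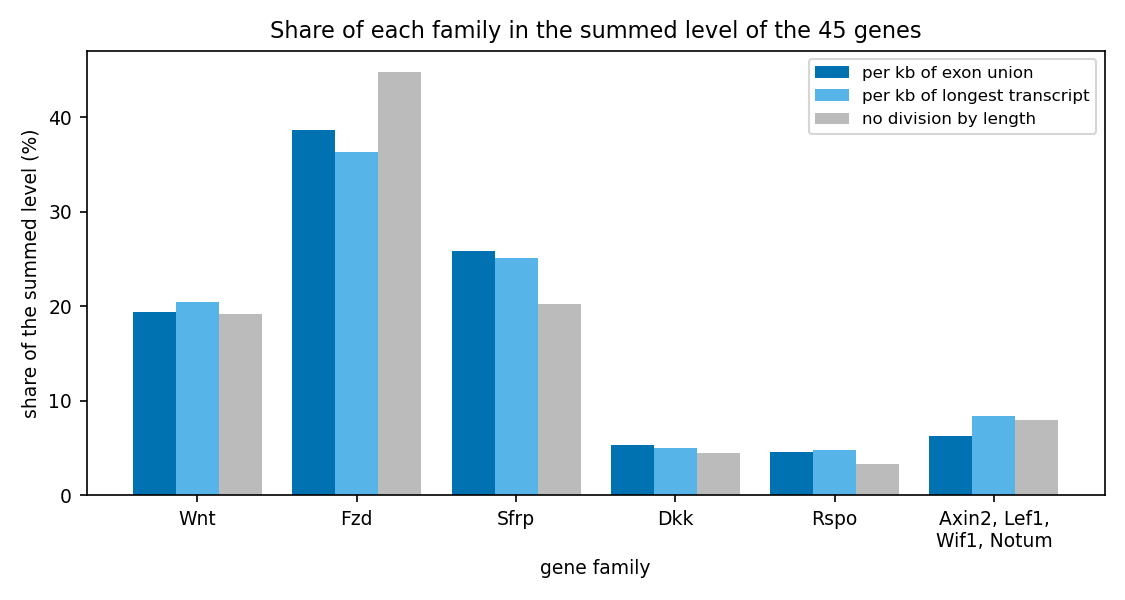
Bars give the share of each family, in percent, of the summed level of the 45 genes under 3 treatments of gene length. Frizzled genes lead under each, with 38.6%, 36.3% and 44.8%, while the Sfrp share runs from 20.3% to 25.9%.

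Other genes of the pathway were measured for the same embryos. All 42 on the list had a mean of at least 10, a limit that most genes above 0 with a length also pass. Their median level was 277 normalized counts per kb and their median percentile 74.4, against 55.5 for the 45 genes. Among 6 co-receptors and alternative receptors, Ptk7 was highest at 1388 normalized counts per kb and Ror1 lowest at 122, with Lrp5 and Lrp6 at 345 and 339. For ligand processing, Porcn, which attaches the lipid, stood at 132 and Wls, the carrier of WNT proteins to the cell surface, at 555. Tpbg, placed in the same group on the list, had 250.

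The receptor turnover genes, which act with Rspo proteins, had the lowest median, 22.3 normalized counts per kb. Lgr4 stood at 329, while Lgr5 and Lgr6 had 22.3 and 5.16, and the ubiquitin ligases Znrf3 and Rnf43 had 77.3 and 20.4. Of 9 other modulators, Frzb was highest and Cer1, with 6.11, lowest. The 9 intracellular genes ran from Apc at 305 to Ctnnb1, which encodes β-catenin, at 7693. The 7 nuclear genes ran from Pygo1 at 63.2 to Pygo2 at 645, and of 3 further feedback targets Nkd1 was highest with 493 and Sp5 lowest with 72.5.

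**Figure D4:**
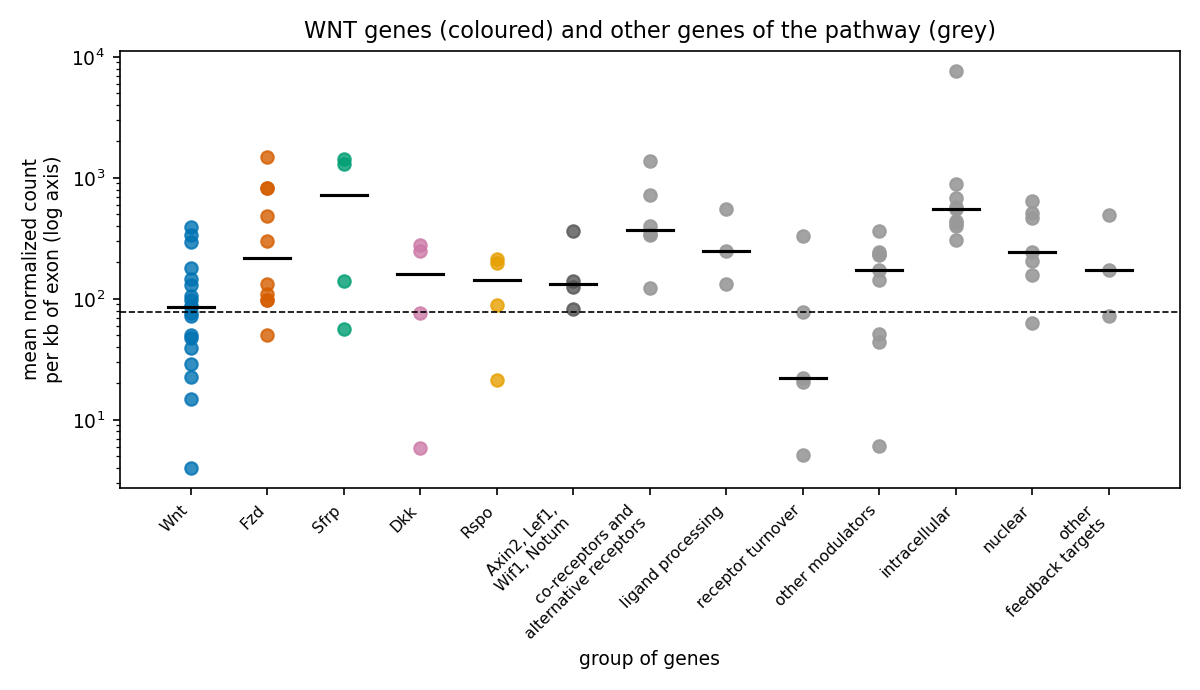
Each point is the mean normalized count per kb of exon of a gene (log axis) over all 10 embryos, by family (coloured) or by role of the other pathway genes (grey). Short bars are medians and the dashed line is the median of all genes above 0; the medians run from 22.3 for receptor turnover to 724 for the Sfrp genes.

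TCF/LEF factors bind DNA, and their core motif CTTTGAT was looked for on both strands of RefSeq promoter windows (GRCm38.p6, 250 bases before to 50 after a start site). Windows were at hand for 30 of the 45 genes, 36 in all. The motif was in 2 of them, or 5.56% (95% exact binomial interval 0.68 to 18.7), against 3.73% of 32851 windows over all genes. This interval treats the windows as independent, although Lef1, Wnt5b and Wnt11 have several each and windows of Lef1 overlap. The median share of G and C bases was 67.3% in the WNT windows and 52.7% in all windows, so the share over all genes is not a matched baseline. No difference between the shares is claimed at this number of windows, and a match is a description and not a site. Both windows are shown because they are the ones that hold the motif, which is in capitals, 5′ to 3′ on the strand of the gene. In Wnt11 (chr7:98834862-98835161, plus strand) it is read on the opposite strand, and the capitals, as printed, begin 51 bases before the start site. In Wnt5b (chr6:119449337-119449636, minus strand) it is read on the strand of the gene and begins 71 bases before one of 3 starts:
Wnt11: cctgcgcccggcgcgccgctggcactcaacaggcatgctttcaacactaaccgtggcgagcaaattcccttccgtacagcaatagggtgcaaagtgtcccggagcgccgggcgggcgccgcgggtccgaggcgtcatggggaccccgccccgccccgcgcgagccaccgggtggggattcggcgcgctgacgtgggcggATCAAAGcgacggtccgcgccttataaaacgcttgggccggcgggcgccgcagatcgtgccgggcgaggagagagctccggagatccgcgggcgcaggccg
Wnt5b: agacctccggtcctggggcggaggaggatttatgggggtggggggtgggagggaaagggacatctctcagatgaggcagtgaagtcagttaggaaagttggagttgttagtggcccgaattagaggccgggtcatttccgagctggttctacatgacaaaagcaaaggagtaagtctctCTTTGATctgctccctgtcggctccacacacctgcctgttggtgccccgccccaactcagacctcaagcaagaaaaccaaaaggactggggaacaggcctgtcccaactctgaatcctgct
No window of Axin2 or Lef1 held these letters, which bears on this stretch only.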

How the data were processed

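RNA of 10 whole mouse embryos (E11.5) was sequenced from poly(A) libraries. The authors trimmed reads with Trimmomatic (0.33), aligned them to mm10 with HISAT2, counted them per gene with HTSeq and normalized and compared them with DESeq2, per the study's methods and the submitters' processing notes. The annotation release and strand setting are not given in the sources used here. Each of the 2 deposited tables holds, for 24302 genes, a signal that the authors computed, the mean of normalized counts over all embryos. This mean differed by at most 3.34e-05 between the tables. In 1 table it is written with decimal commas. Further columns hold the authors' fold changes, standard errors, test statistics and p-values between genotypes, and these were not used, so no test is given. The tables hold no values per embryo, and samples were grouped by title.

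Lengths and positions are from GENCODE M21 (GRCm38), matched by Ensembl identifier for 22785 genes, as the union of all exons. Percentiles are ranks among the 19448 genes with a mean above 0 and a length. Size factors were read from values repeated in at least 20 genes, a step tested on simulated data; reads per embryo are these factors times the summed mean and are approximate. Scripts used Python with pandas and scipy. The genes and lists were chosen with earlier results of these data known. By the naming rule every gene of the set is accounted for, in order of level, with neighbours within 50 kb, and for other pathway genes at least the highest and lowest of each role.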

Additional observations from a re-analysis of the deposited data

How the results depend on the processing

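With limits of 5 and 50 in place of a mean normalized count of 10, 45 and 43 genes passed. Without division by length, the family shares were 44.8% for Fzd, 20.3% for Sfrp, 4.46% for Dkk, 3.34% for Rspo and 7.97% for the single genes. With the longest transcript they were 20.4% for Wnt, 36.3% for Fzd, 25.1% for Sfrp, 4.99% for Dkk, 4.79% for Rspo and 8.34% for the single genes. The share of the leading member of its family, without division by length, was 9.66% for Wnt6, 26.3% for Fzd2, 33.3% for Sfrp2, 50.1% for Dkk2 and 26.9% for Rspo1, where Wnt5a, Sfrp1 and Rspo3 took the lead from Wnt6, Sfrp2 and Rspo1. With the longest transcript it was 16.6% for Wnt6, behind Wnt7b, and 50.7% for Sfrp2. These shares moved beyond their 95% Wilson binomial interval, which covers counting error only. The median percentile was 51.3 among protein-coding genes above 0 and 62 among the 22785 listed genes that had a length. For ratios of 2 genes, length alternatives were added after seeing the data. Of 36 values, 5 turned the direction: Wnt10a over Wnt10b (0.941), Wnt2 over Wnt2b (0.651) and Fzd2 over Sfrp1 (0.949) without division, and Wnt2 over Wnt2b (0.958) and Fzd2 over Sfrp2 (0.956) with the longest transcript. The other 15 alternatives to counts, shares and percentiles left the value within that interval, or a count within 1.5 times. Among them were the second table, matching by Ensembl identifier and the promoter stretch before the start site. Several could hardly move a value: the second table repeats the same mean, and keeping only genes at or above 10 removes only Wnt8a and Dkk4.

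No paired analysis was possible because the tables used hold no values per embryo. For the same reason the planned genotype alternatives (another normalization, no filter on low counts, each embryo left out, a replicate block) were not run. Wnt8a and Dkk4 have the lowest counts, and so the largest relative counting error.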
